A study of Mus musculus with 9 samples.

Results

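Sorted brain endothelial cells of APP/PS1xRIPK1KD mice were compared with those of APP/PS1 mice, which adds an alteration of Ripk1 to a background that both groups share. The comparison takes 6 of the 9 libraries of the series, 3 for each genotype, and all 23420 genes of the deposited matrix. APP/PS1 mice are a transgenic model of Alzheimer's disease that deposits amyloid in the brain; the promoters of its transgenes are not given in the sources used here. APP/PS1xRIPK1KD mice, called the compound genotype from here on, carry the same transgenes together with RIPK1KD; the labels do not spell out KD, nor the cells in which it acts. The mice of all groups were 6 months old, of strain C57BL/6 and labelled male, and each library came from the brain of 1 mouse, from which 20000 CD31+CD45- cells were collected. The 3 remaining libraries are WT mice of the same age and strain. They carry neither alteration. Their levels are given beside those of the compared genotypes, and they share the fit from which the spread, and so each SE and p, was estimated.

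RIPK1 is a serine/threonine kinase that is recruited to the receptor of tumour necrosis factor. With ubiquitin chains attached it is a scaffold for the kinases that activate NF-kB, and freed from them its kinase activity can start apoptosis through Casp8 or necroptosis, a lytic cell death, through Ripk3 and Mlkl. Cerebral endothelial cells line the vessels of the brain, form the blood-brain barrier through tight junctions and display adhesion molecules for leukocytes when cytokines reach them.

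Total expected counts lay between 40204656 and 50892258 in the compound genotype and between 16263792 and 52413200 in APP/PS1, where replicate 1 was the shallowest library. Levels are given in CPM, the counts scaled to a common library size after TMM adjustment, and ± is the SD over 3 libraries unless it is marked as a standard error (SE). The libraries had an endothelial profile: Cldn5, the main claudin of the barrier, stood at 7652 ± 665 CPM in the compound genotype and 6642 ± 1579 CPM in APP/PS1, while Pecam1, which encodes CD31, stood at 1210 ± 20.9 CPM in the compound genotype and 1129 ± 134 CPM in APP/PS1. Cdh5, the cadherin of endothelial junctions, had 599 ± 41.2 CPM in the compound genotype and 545 ± 51.1 CPM in APP/PS1. Although all mice were labelled male, replicates 1 and 2 of each genotype carried the X-inactivation transcript Xist and at most 0.434 CPM of 4 summed Y-linked transcripts, while replicate 3 of each had Y-linked transcripts and at most 4.78 CPM of Xist. The split was the same in every genotype. Counts with replicates 1 and 2 alone are given for the functional lists below, but not for the lists of cell type markers. In such bulk samples, fewer cells of a type and less RNA per cell cannot be told apart.

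The targeted gene was read first. Ripk1 (chr13:34002363-34037147 in GRCm38, plus strand, protein coding) had 31.4, 44.9 and 35.5 CPM in the compound genotype, against 75.3, 52.9 and 40.9 CPM in APP/PS1. The 2 ranges overlapped between replicate 2 of the compound genotype and replicate 3 of APP/PS1. The mean was 37.3 ± 6.91 CPM in the compound genotype and 56.3 ± 17.5 CPM in APP/PS1, with 42.7 ± 6.89 CPM in WT, so the compound level was nearer to WT than to APP/PS1. The log2 fold change of the compound genotype over APP/PS1 was -0.59 ± 0.23 SE (edgeR quasi-likelihood adjusted p = 0.98), which did not pass the false discovery rate (FDR) of 0.05. The transcript was present in every library, and how RIPK1KD alters the protein cannot be read from its level. Exons of Ripk1 overlap those of Serpinb6a on the other strand and of a processed pseudogene, and the libraries keep no strand, so some of these reads may belong to either.

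Of the 13317 genes tested, 1 passed the threshold, or 0.00751% of them, and it was lower in the compound genotype, with 0 genes in the other direction. Without adjustment, 325 genes (2.44%) were higher and 312 (2.34%) lower at a p under 0.05, together 637 or 4.78%, against 666 that chance alone would give. In replicates 1 and 2 alone, 592 genes were higher and 626 lower at that p, and 0 were called. In 708 genes (5.32%) all 3 compound libraries stood above all 3 of APP/PS1, and in 621 (4.66%) all stood below. DESeq2, run as an alternative, called 10 genes higher and 10 lower, and limma-voom called 0, with 363 genes higher and 412 lower at an unadjusted p under 0.05. Apart from the called gene, each gene described from here on had an adjusted p of 0.696 or more in the edgeR quasi-likelihood test, so its values are descriptions.

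The called gene was 2610035D17Rik, a long intergenic non-coding RNA on chromosome 11 (chr11:113043895-113201838 in GRCm38, minus strand) to which no function is assigned here. It had 0 counts in all 3 compound libraries, against 170, 231 and 470 counts in APP/PS1. In CPM that was 0 in each compound library, against 10.7, 4.31 and 9.34 in APP/PS1, and the APP/PS1 mean of 8.11 ± 3.37 CPM was close to the WT mean of 7.95 ± 4.78 CPM. The genotypes compared did not overlap, and both genotypes without RIPK1KD expressed the transcript. Against a floor of 3 counts per library, averaged over the compound libraries as 0.0612 CPM, the transcript fell at least 132.5-fold (edgeR quasi-likelihood, adjusted p = 0.0137). The call was lost when any of 4 single libraries was left out, with adjusted p = 0.0704 without compound replicate 1, 0.0656 without compound replicate 3, 0.107 without APP/PS1 replicate 1 and 0.0744 without APP/PS1 replicate 3, although the counts of 0 are the same in each.

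The 250 bases before the annotated start of 2610035D17Rik (chr11:113201839-113202088, minus strand) are shown because this is the gene that the comparison calls. The sequence is RefSeq's on GRCm38.p6, and capitals mark TATAAAA, the letters of a TATA box, which begins 33 bases before the start. Searched on both strands, these letters are found in 4.98% of 32851 promoter windows of the same length, so the match is a description and not a site shown to be used.
2610035D17Rik: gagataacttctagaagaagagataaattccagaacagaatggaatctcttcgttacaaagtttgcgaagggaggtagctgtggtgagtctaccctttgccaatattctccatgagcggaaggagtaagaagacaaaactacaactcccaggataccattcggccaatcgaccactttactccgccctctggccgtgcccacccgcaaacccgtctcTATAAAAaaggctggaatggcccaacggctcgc

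The neighbours of the called gene and of Ripk1 were read next. Ripk1 lies on chromosome 13, whereas 2610035D17Rik lies on chromosome 11. No exon or intron of another annotated gene overlaps 2610035D17Rik. The nearest tested gene on one side was Sox9 (chr11:112782224-112787760, plus strand), a transcription factor of cartilage, glia and other progenitors, 256 kb away. Sox9 had 0.388, 0.753 and 0.432 CPM in the compound genotype, against 5.98, 3.13 and 2.36 CPM in APP/PS1, without overlap. WT stood between them, at 2.13 ± 0.929 CPM. The log2 fold change of Sox9 was -2.86 ± 0.725 SE (edgeR quasi-likelihood adjusted p = 0.98), and DESeq2 gave it an adjusted p of 0.0237; the gene was chosen after its values were seen. The zinc transporter Slc39a11, on the other side, had a log2 fold change of -0.80 ± 0.439 SE with overlapping libraries.

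**Figure D1:**
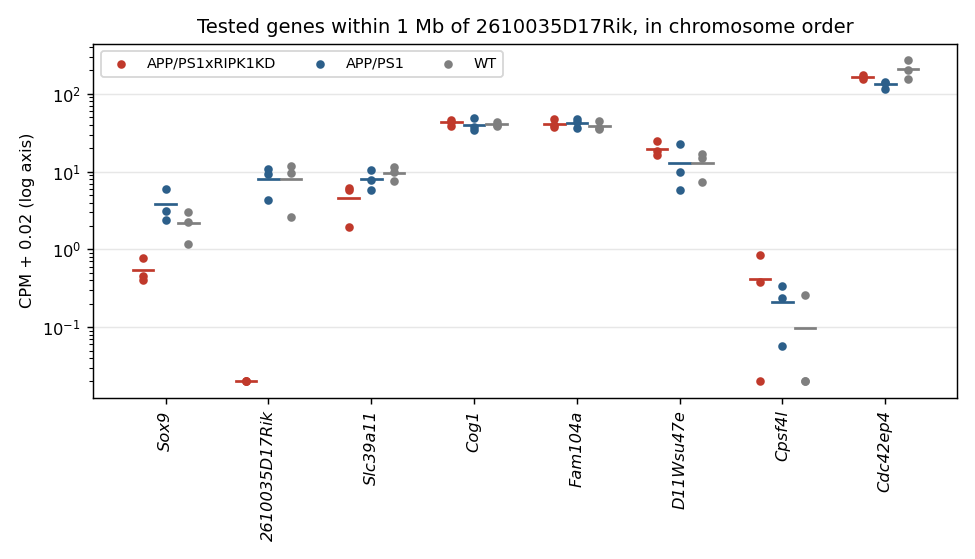
Levels of the 8 tested genes within 1 Mb of 2610035D17Rik, in chromosome order, as CPM plus 0.02 on a log axis; points are libraries, lines are means, and the genotypes run APP/PS1xRIPK1KD, APP/PS1 and WT from left to right. The 3 compound libraries of 2610035D17Rik lie at the bottom of the axis with 0 counts, and Sox9 is the other gene whose compound libraries all lie below those of APP/PS1.

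Within 1 Mb of 2610035D17Rik, 8 genes were tested, of which 4 had a log2 fold change above 0 and 4 below, against 49.4% above and 50.6% below among all genes tested, and the 2 at an unadjusted p under 0.05 were Sox9 and 2610035D17Rik itself, both lower. Within 5 Mb of Ripk1, 48 genes were tested, Ripk1 among them, with a median log2 fold change of -0.03. At that p 1 gene was higher and 2 were lower, namely Ripk1 itself and a transcript of at most 0.727 CPM in any of the 6 libraries. For 2 of the 48 the compound libraries all lay above those of APP/PS1, against 5.32% of all genes tested.

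The complex that RIPK1 works in showed no common direction. Of 28 genes listed, 27 were in the matrix and all 27 were tested; 13 had a log2 fold change above 0 and 14 below, with a median of -0.03 against -0.0034 for all genes tested. At an unadjusted p under 0.05 stood 1 higher and 1 lower. The lower one was Ripk1 and the higher one Ikbkg, which encodes NEMO, the regulatory subunit through which ubiquitin chains activate the NF-kB kinases. It had 48.2, 48.1 and 40.9 CPM in the compound genotype, against 31.4, 16.3 and 29.6 CPM in APP/PS1. All compound libraries were the higher ones, and WT lay between at 34.3 ± 1.8 CPM (log2 fold change 0.83 ± 0.226 SE, edgeR quasi-likelihood adjusted p = 0.98). Exons of Ikbkg overlap those of G6pdx on the other strand, so part of these reads could be of that gene.

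For the genes that carry RIPK1 signals into necroptosis and apoptosis, the means of the genotypes differed by less than the larger of their SDs. Ripk3, the kinase downstream of RIPK1, had 3.24, 7.85 and 5.15 CPM in the compound genotype, against 6.29, 6.45 and 2.92 CPM in APP/PS1. Mlkl, which permeabilises the membrane, stood at 13.2 ± 4.57 CPM in the compound genotype and 16 ± 1.5 CPM in APP/PS1. Casp8, the initiator caspase of this pathway, stood at 73.2 ± 6.89 CPM in the compound genotype and 68.7 ± 2.04 CPM in APP/PS1. Libraries overlapped for all 3 genes. Tnfaip3, the ubiquitin-editing enzyme A20 that restrains this pathway, stood at 22.8 ± 5.17 CPM in the compound genotype and 23.5 ± 7.81 CPM in APP/PS1, with 13.7 ± 5.93 CPM in WT. The receptor Tnfrsf1a had 86.4 ± 4.74 CPM in the compound genotype and 93.5 ± 22.8 CPM in APP/PS1. With standard errors of 0.149 to 0.46 on the log2 scale for Casp8, Mlkl, Tnfaip3 and Ripk3, differences of that size could not be seen. Larger ones may also have been missed with these libraries.

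**Figure D2:**
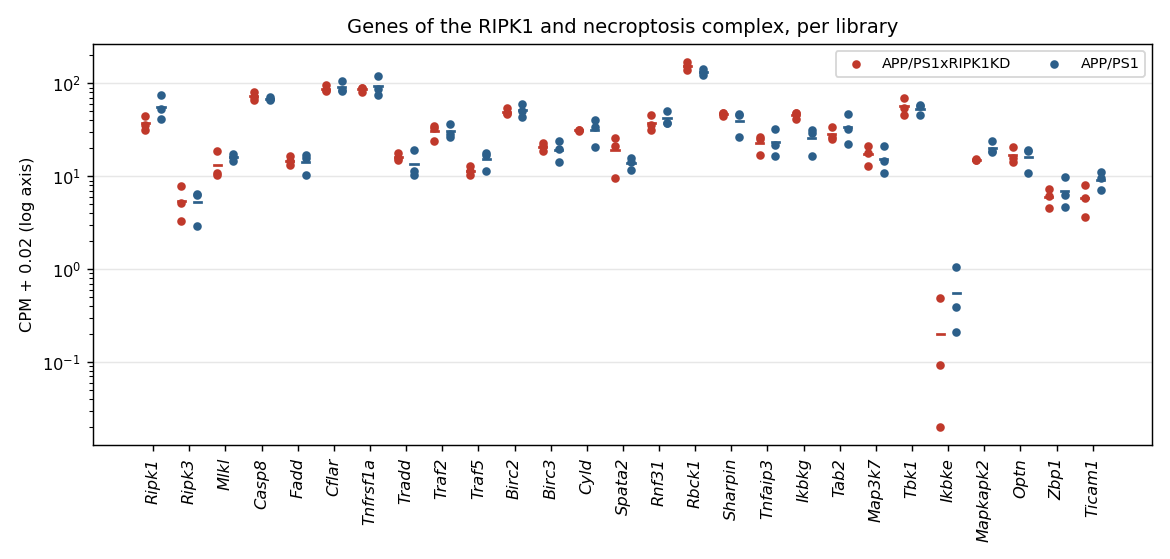
Level in each library of the 27 tested genes of the RIPK1 and necroptosis complex, as CPM plus 0.02 on a log axis; points are libraries, lines are means, and APP/PS1xRIPK1KD stands left of APP/PS1. Ikbkg is the gene whose compound libraries all lie above those of APP/PS1, and for 25 of the 27 the 2 sets of points overlap.

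The N-acetyltransferases Nat1 and Nat2, neighbours of similar sequence on chromosome 8, were read because the rule for named genes holds them. Nat1 had 0, 27 and 11 counts in the compound genotype, against 0 counts in all 3 APP/PS1 libraries and 17, 55 and 0 counts in WT. The level is at most 0.616 CPM in a compound library, while the floor of 3 counts is 0.189 CPM in APP/PS1 replicate 1, so the difference lies near the limit of detection (edgeR quasi-likelihood adjusted p = 1). Nat2 stood at 6.02 ± 2.51 CPM in the compound genotype and 5.56 ± 1.09 CPM in APP/PS1. App, the gene of the amyloid precursor, had 1970 ± 138 CPM in the compound genotype and 1827 ± 154 CPM in APP/PS1, with overlap.

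The 12 lower transcripts with the smallest p among those of at least 5 CPM on average and without overlap were Fkbp5, Aim2, Mthfd1l, Zfp948, Tmem104, Pqlc3, Slc35d2, Sbf2, Atp7a, Wdr7, Rasgrf2 and Litaf. Fkbp5, a co-chaperone of the glucocorticoid receptor and itself one of its target genes, had 7.4, 4.02 and 7.39 CPM in the compound genotype, against 17.6, 35.9 and 15.5 CPM in APP/PS1 and 25.4 ± 4.02 CPM in WT. Its highest compound library was below its lowest APP/PS1 library (log2 fold change -1.88 ± 0.352 SE, edgeR quasi-likelihood adjusted p = 0.696). Aim2, a sensor of DNA in the cytosol that assembles an inflammasome, had 4.43, 3.88 and 4.36 CPM in the compound genotype, against 11.5, 12.4 and 10.8 CPM in APP/PS1. Libraries of 1 genotype differed little, and WT lay between at 8.69 ± 1.17 CPM (log2 fold change -1.45 ± 0.285 SE, edgeR quasi-likelihood adjusted p = 0.696). For both genes the adjusted p in the quasi-likelihood test was 0.696; DESeq2 called them, at adjusted p = 0.000807 for Fkbp5 and 0.00454 for Aim2.

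Others of the 12 were described in turn. Mthfd1l, a folate enzyme of mitochondria, had 4.94, 3.35 and 4.9 CPM in the compound genotype, against 20, 8 and 17.9 CPM in APP/PS1. Its WT mean of 7.57 ± 1.14 CPM was also below all APP/PS1 libraries. The copper transporter Atp7a stood at 58.9 ± 7.98 CPM in the compound genotype and 86 ± 0.423 CPM in APP/PS1, with 65.5 ± 7.27 CPM in WT. Litaf, a protein of late endosomes, stood at 67.9 ± 15.5 CPM in the compound genotype and 113 ± 17.2 CPM in APP/PS1. Slc35d2, a carrier of nucleotide sugars, stood at 16.4 ± 1.86 CPM in the compound genotype, below APP/PS1 at 27.1 ± 0.772 CPM and WT at 27.6 ± 3.88 CPM. Exons of Wdr7 and Litaf overlap genes on the other strand, so some of these reads could belong to those genes.

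The 12 higher transcripts chosen in the same way were Lhfpl2, E030002O03Rik, Alox12, Pisd-ps3, Plscr2, Prmt10, Nrp1, Efr3b, Lrrn3, Grb14, Glb1 and 0610010B08Rik. Lhfpl2, a membrane protein of the tetraspan kind, had 90.3, 106 and 78.4 CPM in the compound genotype, against 59.3, 50.3 and 42.6 CPM in APP/PS1. Each compound library was the higher, and WT, at 75.4 ± 10.3 CPM, was nearer to the compound genotype (log2 fold change 0.85 ± 0.171 SE, edgeR quasi-likelihood adjusted p = 0.696). Alox12, a lipoxygenase that acts on arachidonic acid, had 79.2, 78.5 and 66.3 CPM in the compound genotype, against 33.9, 38 and 42.8 CPM in APP/PS1 (0.96 ± 0.199 SE, edgeR quasi-likelihood adjusted p = 0.696). WT lay between at 57.6 ± 16.7 CPM. Plscr2, of the phospholipid scramblase family, had 192, 159 and 172 CPM in the compound genotype, against 49.2, 115 and 62 CPM in APP/PS1 (1.20 ± 0.264 SE, edgeR quasi-likelihood adjusted p = 0.927). WT, at 93.3 ± 18.1 CPM, was on the side of APP/PS1.

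Nrp1, the neuropilin that serves as co-receptor of VEGF and of semaphorins, had 568, 559 and 405 CPM in the compound genotype, against 282, 350 and 310 CPM in APP/PS1. The lowest compound library, replicate 3, was still above every APP/PS1 library (0.70 ± 0.173 SE, edgeR quasi-likelihood adjusted p = 0.98), and WT stood between at 398 ± 81.3 CPM. Grb14, an adaptor that inhibits the insulin receptor, stood at 113 ± 26.7 CPM in the compound genotype and 69.4 ± 8.4 CPM in APP/PS1. Glb1, the lysosomal beta-galactosidase, stood at 34.6 ± 1.69 CPM in the compound genotype and 22.6 ± 0.979 CPM in APP/PS1. Pisd-ps3 is a pseudogene that shares sequence with Pisd and other copies, so its 308 ± 32.8 CPM in the compound genotype and 156 ± 53.4 CPM in APP/PS1 are uncertain. DESeq2 called 5 of these 12 genes, namely Lhfpl2, E030002O03Rik, Alox12, Pisd-ps3 and Plscr2.

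**Figure D3:**
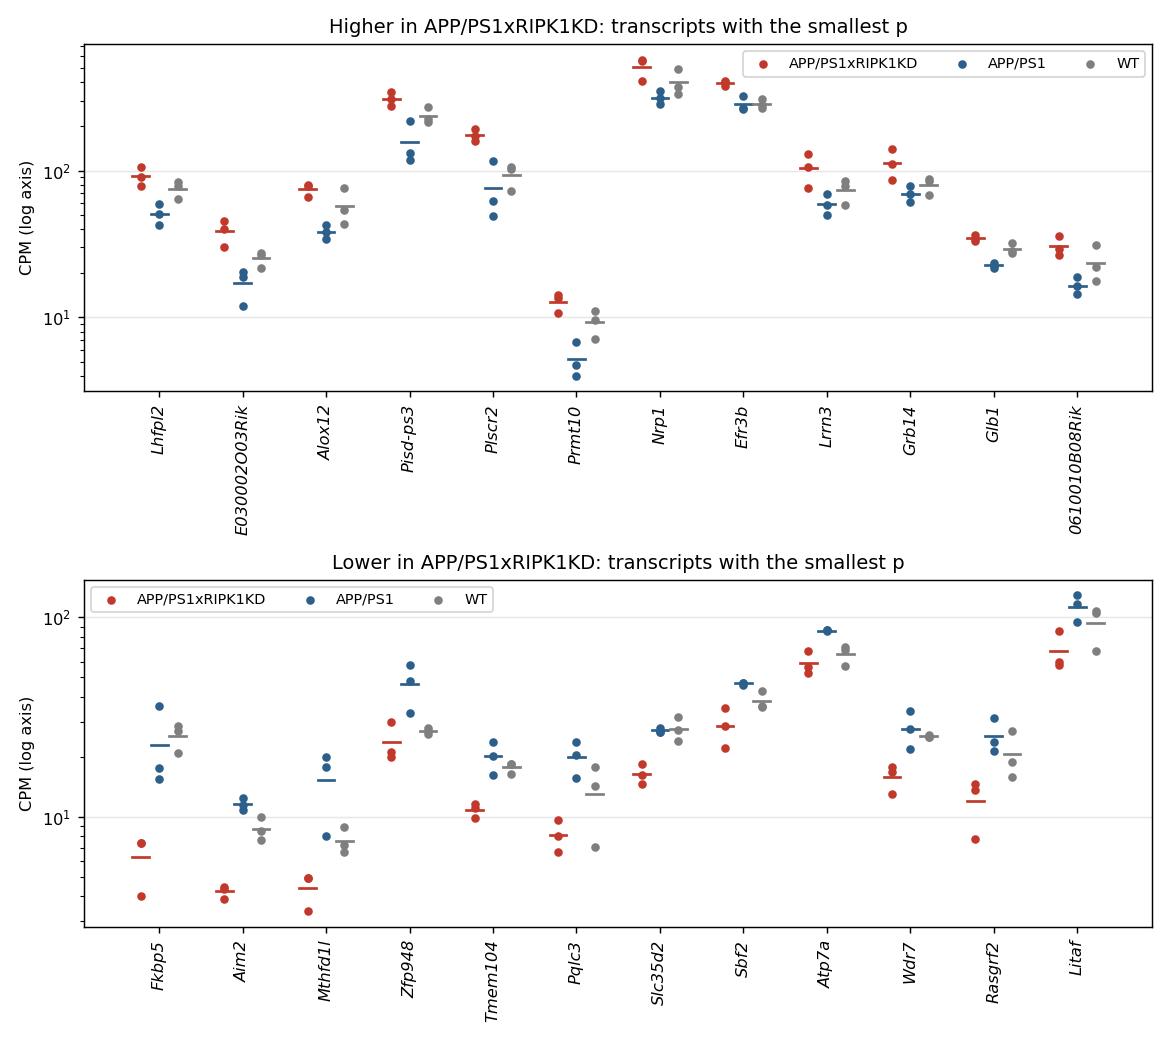
Level in each library of the 12 transcripts with the smallest p in each direction, among those of at least 5 CPM whose compound and APP/PS1 libraries do not overlap, as CPM on a log axis; lines are means, and the genotypes run APP/PS1xRIPK1KD, APP/PS1 and WT. The compound and APP/PS1 points are apart by the choice of the genes, and for several of them, such as Lhfpl2 and Aim2, WT lies between.

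Lists of genes for 23 endothelial and cellular functions were then described by their members, beside the 2.44% higher and 2.34% lower of all genes at an unadjusted p under 0.05. The counts of all genes at that p, 325 higher and 312 lower, changed with the libraries used. Without compound replicate 1, 2 or 3 they were 233, 240 and 426 higher and 246, 327 and 470 lower. Without APP/PS1 replicate 1, 2 or 3 they were 309, 341 and 529 higher and 255, 306 and 478 lower. In replicates 1 and 2 alone they were 592 higher and 626 lower. No member of any list passed the FDR threshold. The lists with the lowest medians were venous and adhesion genes, clock genes, immediate early genes and glucocorticoid receptor targets, and the highest medians were those of tip cell and cell cycle genes. The 15 tested cell cycle genes had a median of 0.32 with none at that p, and their summed level was 164 ± 1.94 CPM in the compound genotype and 168 ± 33 CPM in APP/PS1. Interferon-stimulated genes, heat shock chaperones, the unfolded protein response, cholesterol synthesis, arterial genes and amyloid processing each had no member at that p with all libraries. In replicates 1 and 2 alone, heat shock chaperones had 1 higher and 4 lower at that p, and interferon-stimulated genes had 2 higher and 2 lower. Arterial genes had 1 higher and 2 lower there, and 0 higher and 3 lower without compound replicate 3. Amyloid processing had 1 higher and 2 lower in replicates 1 and 2, cholesterol synthesis 1 and 1, the unfolded protein response 0 and 2, and cell cycle genes 1 and 0. The RIPK1 complex had 2 higher and 1 lower in replicates 1 and 2, and NF-kB genes 1 and 1. Clock genes had 0 and 2 there, Wnt genes 4 and 1, and flow-responsive genes 1 and 1.

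**Figure D4:**
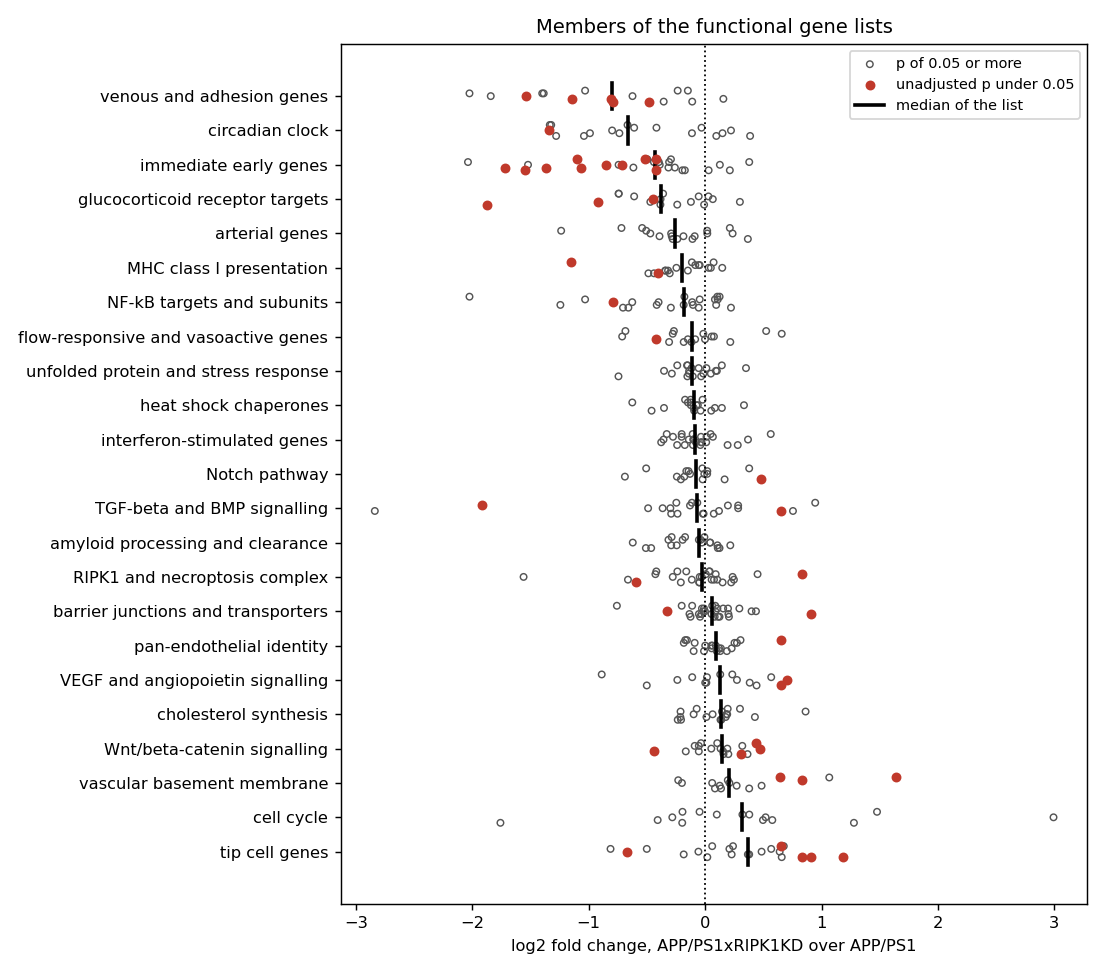
Log2 fold change of APP/PS1xRIPK1KD over APP/PS1 for each tested member of 23 lists; filled points have an unadjusted p under 0.05, thick bars are the medians of the lists and the dotted line is the median of all genes tested. Filled points lie left of 0 for the venous, immediate early and glucocorticoid lists and mostly right of it for tip cell, basement membrane and Wnt genes.

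Immediate early genes, which cells switch on within minutes of a stimulus and also during tissue dissociation, were lower in most members. All 28 members were tested; 24 had a log2 fold change below 0 and the median was -0.43. At an unadjusted p under 0.05 there were 10 lower and 0 higher. For 5 of the 28 the compound libraries all lay below those of APP/PS1, against 4.66% of all genes tested. Their summed level was 2348, 2933 and 3019 CPM in the compound genotype, against 4439, 3198 and 3936 CPM in APP/PS1, and 3063 ± 778 CPM in WT. The summed levels do not overlap, and WT is nearer to the compound genotype.

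Single members show how the 3 APP/PS1 libraries differ among themselves. The transcription factor Egr1 had 17.7, 12.2 and 27 CPM in the compound genotype, against 44.8, 22.8 and 51.6 CPM in APP/PS1 (-1.06 ± 0.332 SE). The matrix protein Cyr61 had 50.7, 57.2 and 70.8 CPM in the compound genotype, against 260, 63.3 and 139 CPM in APP/PS1 (-1.37 ± 0.431 SE). For both, replicate 2 of APP/PS1 lay within the range of the compound libraries. Fos, named after its values were seen, had 45.3, 33.6 and 108 CPM in the compound genotype, against 255, 72.2 and 220 CPM in APP/PS1, with the same overlap and 31.9 ± 3.24 CPM in WT. The AP-1 subunit Junb stood at 57.8 ± 13.9 CPM in the compound genotype and 124 ± 58.9 CPM in APP/PS1. Klf4, which laminar flow also induces, had 173, 202 and 223 CPM in the compound genotype, against 313, 247 and 240 CPM in APP/PS1, without overlap (-0.42 ± 0.158 SE). The 10 members at that p became 5 without compound replicate 1, 5 without APP/PS1 replicate 1 and 6, with 1 higher, without APP/PS1 replicate 3, and were 13 in replicates 1 and 2 alone. The share of dissociation in these values was not tested.

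Targets of the glucocorticoid receptor, the nuclear receptor of corticosterone, were lower in most members, Fkbp5 among them. All 17 were tested; 14 had a log2 fold change below 0, the median was -0.38, and 3 stood lower at an unadjusted p under 0.05 against 0 higher. For 5 of the 17 the compound libraries all lay below those of APP/PS1, against 4.66% of all genes tested. In replicates 1 and 2 alone the 3 lower members became 6. Klf9, a transcription factor, had 154, 156 and 151 CPM in the compound genotype, against 223, 216 and 189 CPM in APP/PS1 and 235 ± 46 CPM in WT (-0.44 ± 0.149 SE). Fam107a had 72.9, 32.5 and 93.1 CPM in the compound genotype, against 110, 158 and 107 CPM in APP/PS1 (-0.92 ± 0.3 SE). For both genes the highest compound library was below the lowest of APP/PS1, and the APP/PS1 mean of Fam107a, 125 ± 28.7 CPM, was close to 123 ± 10.9 CPM in WT. The metallothioneins did not share this: Mt1 stood at 120 ± 45.8 CPM in the compound genotype and 97.7 ± 6.46 CPM in APP/PS1. The summed level of the list was 2836 ± 98.7 CPM in the compound genotype, below APP/PS1 at 3544 ± 284 CPM, without overlap.

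Clock genes, whose levels depend on the hour of collection, varied widely between libraries of 1 genotype. Of 17 tested, 13 had a log2 fold change below 0 and the median was -0.67, but 1 stood lower at an unadjusted p under 0.05. That was Hlf, a transcription factor of the clock output, with 5.73, 9.22 and 17.6 CPM in the compound genotype, against 46.2, 18.2 and 18.7 CPM in APP/PS1. Dbp, of the same family and named after its values were seen, had 11.2, 43.7 and 86.8 CPM in the compound genotype, against 219, 24.1 and 103 CPM in APP/PS1. Its range within each genotype, from lowest to highest library, was wider than the difference between the 2 means. The labels give no hour of collection, and its part in these values was not tested.

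Venous and adhesion genes, which mark venules and the surface that leukocytes bind, were the list with the lowest median. Of 17 members 16 were tested; 15 had a log2 fold change below 0 and the median was -0.80. At an unadjusted p under 0.05 there were 5 lower and 0 higher. For 7 of the 16 the compound libraries all lay below those of APP/PS1, against 4.66% of all genes tested. Il1r1, the signalling receptor of interleukin 1, had 33.8, 42.1 and 52.7 CPM in the compound genotype, against 90.1, 127 and 65.7 CPM in APP/PS1. WT was at 115 ± 50.8 CPM, on the side of APP/PS1 (-1.14 ± 0.324 SE). Ch25h, which makes the oxysterol 25-hydroxycholesterol, had 7.79, 8.9 and 10.3 CPM in the compound genotype, against 20.2, 32.1 and 26.1 CPM in APP/PS1 (-1.54 ± 0.581 SE). The membrane protein Tmem252 had 98.9, 94.9 and 107 CPM in the compound genotype, against 129, 168 and 122 CPM in APP/PS1, and 251 ± 23.1 CPM in WT.

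Icam1, the adhesion molecule through which leukocytes arrest on endothelium, is a member of the venous list and of the list of NF-kB targets. It had 55.2, 43.7 and 69.1 CPM in the compound genotype, against 91, 119 and 80.9 CPM in APP/PS1, without overlap (-0.79 ± 0.336 SE, edgeR quasi-likelihood adjusted p = 0.999). WT was at 72.3 ± 41.1 CPM, with a spread that covers both. Vcam1, a second adhesion molecule named after its values were seen, had 66.2, 114 and 237 CPM in the compound genotype, against 196, 361 and 294 CPM in APP/PS1, with compound replicate 3 inside the APP/PS1 range. The 5 venous members at that p became 2 without compound replicate 1, without compound replicate 2 or without APP/PS1 replicate 2, and 3 without APP/PS1 replicate 1. In replicates 1 and 2 alone there were 6 lower and 1 higher. The list's summed level was 1067, 1273 and 1568 CPM in the compound genotype, against 1923, 2143 and 1956 CPM in APP/PS1.

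NF-kB subunits and targets as a whole were nearer to all genes. Of 25 listed, 22 were tested, and 16 had a log2 fold change below 0, with a median of -0.18; Icam1 was the 1 lower at an unadjusted p under 0.05. Rela, the main transactivating subunit, stood at 180 ± 20.2 CPM in the compound genotype and 154 ± 22.3 CPM in APP/PS1. The inhibitor Nfkbia, a target that the pathway induces, stood at 771 ± 103 CPM in the compound genotype and 801 ± 110 CPM in APP/PS1. Ccl2 and Il6 had 0 counts in all 6 libraries.

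The Icam1 promoter is shown because the gene carries a motif of the factor that RIPK1 acts on, in the 250 bases before the start that RefSeq gives on GRCm38.p6 (chr9:21015690-21015939, plus strand). Capitals mark GGAAATTCC, a kB motif, which begins 153 bases before that start. Searched on both strands, these letters are in 0.286% of 32851 windows. Of the 20 genes of the NF-kB list with a window, 5 carry them in at least 1: Cxcl1, Cxcl10, Icam1, Nfkbia and Tnfaip3. This count is of genes and the share is of windows, so they cannot be compared directly. Of the 5, Cxcl10 had a log2 fold change of 0.095 and the other four were below 0, from -0.79 for Icam1 to -0.047 for Tnfaip3. No member of the 5 other than Icam1 reached an unadjusted p of 0.05, and a match says nothing about binding in these cells.
Icam1: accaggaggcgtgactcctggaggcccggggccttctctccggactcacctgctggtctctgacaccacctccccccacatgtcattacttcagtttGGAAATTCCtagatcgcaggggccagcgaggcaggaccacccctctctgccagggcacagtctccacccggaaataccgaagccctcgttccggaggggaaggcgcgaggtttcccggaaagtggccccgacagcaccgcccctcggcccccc

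Genes of antigen presentation by MHC class I, another set that inflammatory signals induce, had more members lower than higher. All 18 were tested; 14 had a log2 fold change below 0, the median was -0.20, and 2 stood lower at an unadjusted p under 0.05. In replicates 1 and 2 alone there were 1 higher and 3 lower. Left-out libraries took the 2 to 0 for compound replicate 2, APP/PS1 replicate 1 or APP/PS1 replicate 3, and to 1 for each of the others. Nlrc5, the transactivator of class I genes, had 21.4, 16.9 and 14.3 CPM in the compound genotype, against 46.6, 25.2 and 45.1 CPM in APP/PS1, and 57.5 ± 45 CPM in WT (-1.15 ± 0.461 SE). Erap1, a peptidase that trims peptides for class I, stood at 45.2 ± 4.12 CPM in the compound genotype and 60 ± 6.29 CPM in APP/PS1. Exons of both genes overlap a gene on the other strand. The class I light chain B2m stood at 1975 ± 333 CPM in the compound genotype and 2679 ± 446 CPM in APP/PS1, with overlap. Interferon-stimulated genes, which share inducers with this list, had 18 of 26 below 0 and a median of -0.09, with 0 at that p.

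Tip cell genes, which mark the leading cells of a growing vessel, were higher in most members. Of 21 tested, 16 had a log2 fold change above 0, the median was 0.37, and at an unadjusted p under 0.05 there were 4 higher and 1 lower. Esm1, a proteoglycan secreted by VEGF-stimulated endothelium, had 89.1, 79.2 and 41.3 CPM in the compound genotype, against 17, 41.7 and 33.2 CPM in APP/PS1 (1.18 ± 0.408 SE). Kdr, the main signalling receptor of VEGF, had 579, 630 and 371 CPM in the compound genotype, against 308, 323 and 373 CPM in APP/PS1 (0.65 ± 0.208 SE). Plvap, the diaphragm protein of fenestrated and immature vessels, had 579, 584 and 291 CPM in the compound genotype, against 167, 237 and 369 CPM in APP/PS1 (0.91 ± 0.372 SE). In all 3 genes compound replicates 1 and 2 were above every APP/PS1 library, and compound replicate 3 was within their range. The lower member was Plaur, the urokinase receptor, at 32.1 ± 9.22 CPM in the compound genotype and 51.1 ± 15.1 CPM in APP/PS1.

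The replicates decide how many tip cell genes stand out. The 4 higher became 8 without compound replicate 3, 7 without APP/PS1 replicate 3, 10 in replicates 1 and 2 alone, and 2 without compound replicate 1. Over all genes tested, the 325 higher became 426, 529, 592 and 233 in the same settings. These changes had the same direction as those of the list and were smaller in proportion, and their cause was not tested. Replicates 1 and 2 are the libraries with Xist, and replicate 3 is 1 library a genotype, so no test within it was possible. The summed level of the list was 3395, 3769 and 2412 CPM in the compound genotype, against 2135, 2120 and 2843 CPM in APP/PS1, so the order of the genotypes was the other way round in replicate 3. WT stood at 3042 ± 716 CPM, nearer to the compound genotype.

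Genes of the vascular basement membrane, the sheet of collagen IV, laminin and nidogen under the endothelium, were also higher in most members. All 15 were tested; 13 had a log2 fold change above 0, the median was 0.21, and 3 stood higher at an unadjusted p under 0.05. The linker Nid2 had 63.4, 75.3 and 33.9 CPM in the compound genotype, against 26.3, 35.5 and 34.9 CPM in APP/PS1 (0.83 ± 0.262 SE). Hspg2, the proteoglycan perlecan, had 277, 216 and 147 CPM in the compound genotype, against 139, 103 and 168 CPM in APP/PS1 (0.64 ± 0.257 SE). As for Esm1 and Kdr, the overlap came from compound replicate 3. The laminin chain Lamb1 was at 7.41 ± 3.38 CPM in the compound genotype and 2.36 ± 1.96 CPM in APP/PS1, with 8.82 ± 5.79 CPM in WT. The 3 higher were 9 in replicates 1 and 2 alone, 7 without APP/PS1 replicate 3 and 6 without compound replicate 3, and 1 without compound replicate 1, compound replicate 2 or APP/PS1 replicate 1. No member of this list was lower at that p in any of these settings. Nid2 is also a member of the tip cell list and Kdr of the VEGF list, so these lists are not separate observations.

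Receptors and ligands of VEGF and the angiopoietins included Nrp1 and Kdr as the 2 higher members at an unadjusted p under 0.05. All 15 were tested, 11 had a log2 fold change above 0 and the median was 0.13. The vessel-destabilising ligand Angpt2, named after its values were seen, was on the other side, with 22.7, 23.3 and 13.1 CPM in the compound genotype, against 32.2, 26.7 and 24.8 CPM in APP/PS1. Flt1, the decoy receptor of VEGF, stood at 2171 ± 16.7 CPM in the compound genotype and 1985 ± 203 CPM in APP/PS1. Neither gene reached an unadjusted p of 0.05. The 2 higher became 4 without compound replicate 3 and in replicates 1 and 2 alone.

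Wnt/beta-catenin signalling, which maintains the blood-brain barrier, had 18 of 20 members tested, 12 of them with a log2 fold change above 0 and a median of 0.14. At an unadjusted p under 0.05 there were 3 higher and 1 lower. The higher ones included both TCF/LEF transcription factors in the list. Lef1 had 378, 403 and 360 CPM in the compound genotype, against 303, 325 and 291 CPM in APP/PS1 (0.31 ± 0.113 SE). Tcf7 had 29.8, 40.6 and 35.6 CPM in the compound genotype, against 25.5, 27.4 and 23.5 CPM in APP/PS1 (0.47 ± 0.191 SE). Nkd1, a feedback inhibitor, had 126, 155 and 129 CPM in the compound genotype, against 106, 93.4 and 103 CPM in APP/PS1 (0.43 ± 0.184 SE). In all 3 genes the compound libraries were above every APP/PS1 library. Reck, the co-receptor for the ligand Wnt7, was the lower one, at 124 ± 23.7 CPM in the compound genotype and 168 ± 19.9 CPM in APP/PS1. Axin2, the usual readout of the pathway, stood at 66.6 ± 9.68 CPM in the compound genotype and 59.9 ± 7.36 CPM in APP/PS1, with overlap. The 3 higher became 0 without compound replicate 2 and 1 without APP/PS1 replicate 1.

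Ligands of the TGF-beta and BMP family differed in direction, in a list of 21 tested genes with a median of -0.07. Tgfb2 had 102, 107 and 97.7 CPM in the compound genotype, against 65.5, 48.6 and 81.7 CPM in APP/PS1, without overlap (0.65 ± 0.208 SE). Bmp4 was the reverse at a low level, with 0.673, 2.81 and 4.11 CPM in the compound genotype, against 9.06, 5.89 and 13.7 CPM in APP/PS1 (-1.91 ± 0.619 SE). WT had 1.95 ± 0.703 CPM of Bmp4, on the side of the compound genotype. In the Notch list, Rfng, a glycosyltransferase that modifies Notch receptors, stood at 40.8 ± 5.79 CPM in the compound genotype and 29.3 ± 2.93 CPM in APP/PS1, without overlap. In replicates 1 and 2 alone, the TGF-beta and BMP list had 1 higher and 4 lower at an unadjusted p under 0.05, against 1 and 1 with all libraries, and the Notch list had 0 higher and 3 lower, against 1 and 0.

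Barrier genes were near evenly divided in direction, and most identity genes were above 0 by small amounts. Of 29 tested genes of junctions and transporters, 16 had a log2 fold change above 0, with a median of 0.06. The 1 lower at an unadjusted p under 0.05 was Slc2a1, the glucose transporter of the barrier, which had 6172, 5265 and 7744 CPM in the compound genotype, against 7432, 8291 and 8388 CPM in APP/PS1 (-0.33 ± 0.138 SE). The 1 higher was Plvap, described above, which mature barrier endothelium keeps low. The barrier counts were 4 higher and 3 lower in replicates 1 and 2 alone. They were 0 higher and 0 lower without compound replicate 1, without compound replicate 2 or without APP/PS1 replicate 2. Of the 21 genes of endothelial identity, 15 had a log2 fold change above 0 and 6 below, the median was 0.09, and Kdr was the 1 higher at that p, with 0 lower. The identity counts were 4 higher and 0 lower without compound replicate 3 and in replicates 1 and 2 alone. They were 2 higher and 0 lower without APP/PS1 replicate 3, and 1 higher and 1 lower without APP/PS1 replicate 2. The summed level of the identity genes was 21359 ± 398 CPM in the compound genotype and 21165 ± 1688 CPM in APP/PS1.

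Markers of other cells that the gate could hold were read beside these lists. Mural markers, of the pericytes and smooth muscle that wrap vessels, were below 0 in 15 of the 16 tested (median -0.45), and summed to 76.3, 144 and 332 CPM in the compound genotype, against 219, 287 and 228 CPM in APP/PS1 and 45.4 ± 28.4 CPM in WT. The compound libraries spanned the APP/PS1 range. The pericyte glycoprotein Vtn had 25.5, 26.9 and 47 CPM in the compound genotype, against 48.2, 52.9 and 59.5 CPM in APP/PS1, and the channel subunit Abcc9 stood at 3.51 ± 0.556 CPM in the compound genotype and 9.16 ± 5.05 CPM in APP/PS1. The smooth muscle actin Acta2 had 4.85, 21.5 and 96.6 CPM in the compound genotype, against 39.4, 60.1 and 55.6 CPM in APP/PS1, so compound replicate 3 held most of it. The matrix protein Mgp, of the arterial list and named after its values were seen, stood at 133, 172 and 483 CPM in the compound genotype, against 722, 370 and 767 CPM in APP/PS1. The part of these cells in the lower and higher endothelial lists was not tested.

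**Figure D5:**
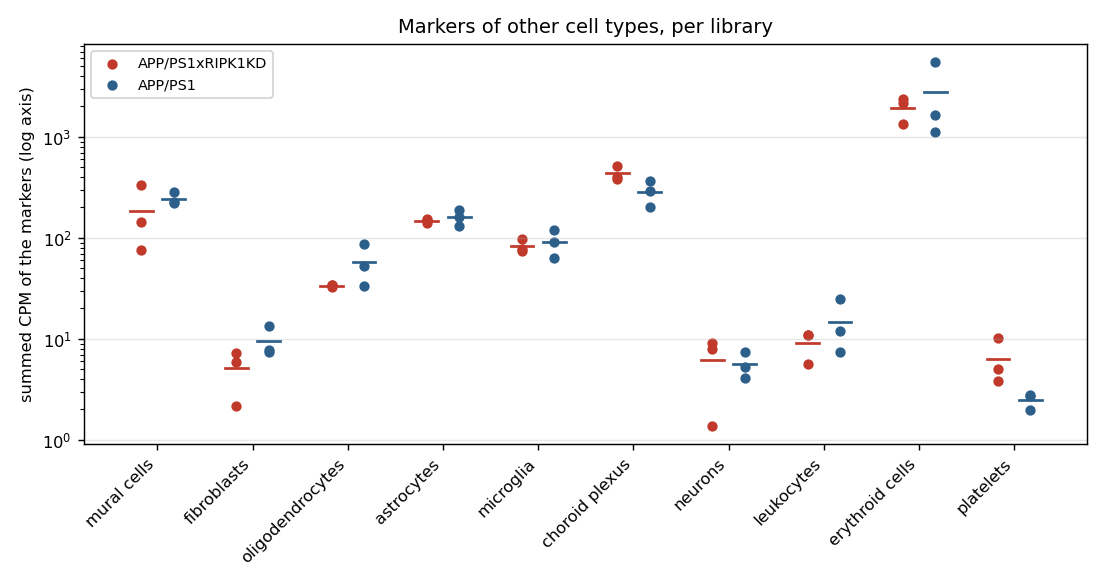
Summed CPM of the markers of 10 other cell types in each library, on a log axis; points are libraries, lines are means, and APP/PS1xRIPK1KD stands left of APP/PS1. Choroid plexus and platelet sums lie higher in the compound genotype, where all 3 libraries are above those of APP/PS1, while mural sums of the compound genotype span from below to above those of APP/PS1.

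Markers of oligodendrocytes and of the choroid plexus differed in direction. All 7 tested oligodendrocyte markers had a log2 fold change below 0, with a median of -1.83, and the list summed to 34.5, 34.2 and 32.5 CPM in the compound genotype, against 33.3, 52.9 and 87.5 CPM in APP/PS1. All 7 tested choroid plexus markers were above 0, with a median of 0.47 and sums of 518, 404 and 382 CPM in the compound genotype, against 203, 364 and 289 CPM in APP/PS1. Of the 7, Ttr was the 1 at an unadjusted p under 0.05. Most of these sums was Ttr and Enpp2. The libraries of Enpp2 overlapped, at 199 ± 15.6 CPM in the compound genotype and 172 ± 40.3 CPM in APP/PS1. Ttr, the transport protein that choroid plexus epithelium secretes in bulk, had 296, 208 and 162 CPM in the compound genotype, against 49.5, 128 and 134 CPM in APP/PS1, and 54.4 ± 14.5 CPM in WT. The platelet integrin Itga2b was at 2.31 ± 1.66 CPM in the compound genotype and 0.447 ± 0.0342 CPM in APP/PS1. Astrocyte markers summed to 148 ± 7.78 CPM in the compound genotype and 161 ± 29.2 CPM in APP/PS1, with 2 of 8 tested members above 0 and 6 below. Most of that sum was Gja1 and Fgfr3, while the astrocyte channel Aqp4 averaged 0.0981 CPM in the compound genotype and 0.0331 CPM in APP/PS1. Fibroblast markers summed to 5.1 ± 2.64 CPM in the compound genotype and 9.54 ± 3.44 CPM in APP/PS1, with all 4 tested members below 0 and a median of -1.16, and Lum and Dpt had 0 counts in all 6 libraries. Leukocyte markers summed to 9.17 ± 3.08 CPM in the compound genotype and 14.7 ± 8.99 CPM in APP/PS1, with 2 of 6 tested members above 0 and 4 below. Among them Ptprc, which encodes CD45, averaged 0.306 CPM in the compound genotype and 0.0559 CPM in APP/PS1.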

How the data were processed

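Polyadenylated transcripts were measured by Smart-seq2, without strand or molecular identifiers, in 9 libraries of sorted brain endothelial cells. The authors deposited expected counts per gene symbol, and the submitters' processing notes name Bowtie 0.12.2, RSEM, edgeR 3.10.2 and mm10 (GRCm38). No annotation is named in these sources. Of the deposited values, 28.35% were not whole numbers, as RSEM gives. The authors' table of APP/PS1 against WT was not used.

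Expected counts were rounded. Genes were filtered with filterByExpr (minimum count 10, minimum total 15), which kept 13317 of 23420, and libraries were scaled by TMM. One edgeR 4.0.16 quasi-likelihood fit with robust dispersion took all 9 libraries, with 1 coefficient per genotype, and the contrast APP/PS1xRIPK1KD minus APP/PS1 was tested 2-sided in R 4.3.3, with Benjamini-Hochberg adjustment over all genes tested and an FDR of 0.05. Standard errors are the log2 fold change divided by the root of F. The labels name 1 mouse for each library; whether mice shared litters or days is not given. Replicate numbers were not taken to pair samples. Same-numbered libraries correlated by -0.0187, -0.00228 and 0.0539 in their deviations from the genotype means, none over 0.1, and different-numbered ones by -0.0376 to 0.0403. The numbers do follow the split between Xist and Y-linked transcripts, for which the main fit has no term. Fits with a replicate block are given below. The script was tested on simulated data.

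The members and lists were chosen with earlier results of these data known. Genes are named if they passed the FDR. Beyond these come the 12 in each direction that had the smallest p while averaging 5 CPM or more and not overlapping between genotypes, then list members at p under 0.05, 3 in each direction. Cell type lists give their 2 most abundant markers and 2 in each direction, and 11 genes were set by name (Cldn5, Cdh5, Pecam1, App, Nat1, Nat2 and the RIPK1 pathway genes Ripk1, Ripk3, Casp8, Mlkl and Tnfaip3); not all are printed. Tnfrsf1a, Slc39a11, Rela, Nfkbia, B2m, Mt1, Flt1, Axin2, Vtn, Ptprc, Aqp4, Gja1, Fgfr3, Lum, Dpt, Cxcl1 and Cxcl10 were chosen after their values were seen, as were the genes said to be so in the text. Of 97 genes with a position, 28 have exons that overlap another gene, among them Junb, Nid2, Bmp4, Ch25h, Icam1, Lef1, Tgfb2, Slc2a1, App and Glb1; without strand, reads from the overlap cannot be assigned. Alternatives were DESeq2 1.42.0, limma-voom (limma 3.58.1), the edgeR likelihood ratio test, RLE and upper-quartile scaling, Rn45s left out, other filters, only 6 libraries, a replicate block and each library left out. Rn45s, a ribosomal RNA precursor, took 15.8% to 28.6% of the counts of the 6 libraries. Positions are those of GENCODE M21 and promoters those of RefSeq. Floors of 3 counts cover counting error only. Figures were drawn with matplotlib 3.10.9. One gene is not reported here.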

Additional observations from a re-analysis of the deposited data

How the results depend on the processing

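The count of 1 called gene was the same with RLE or upper-quartile scaling, with Rn45s left out, with no filter or a stricter filter on low counts, and with only the 6 libraries compared. DESeq2 called 20 genes (10 higher and 10 lower), which include 2610035D17Rik, and the edgeR likelihood ratio test 17 (8 higher and 9 lower), against 0 by limma-voom, where 2610035D17Rik had an adjusted p of 0.843. With the replicate block 0 genes were called, in 9 libraries (2610035D17Rik at adjusted p = 0.128) and in 6 (0.141); at an unadjusted p under 0.05 there were 269 higher and 318 lower in 9 libraries, the arterial list had 0 higher and 3 lower in 9 libraries and 0 higher and 4 lower in 6, and the numbers are not known to pair mice. With replicates 1 and 2 alone 0 genes were called (0.0776), but 592 stood higher and 626 lower at an unadjusted p under 0.05, or 9.09% of the genes tested. Leaving out single libraries gave 0 to 4 calls, 0 to 3 of them higher and 0 to 3 lower, with 4 calls without compound replicate 2 or APP/PS1 replicate 2 and 0 without each of the others; the cause of these changes was not tested. Of 98 genes followed, 88 kept their direction in all 18 settings that could be fitted. Many of the 98 were chosen from these same values, by a small p, by libraries without overlap or by 0 counts in 1 genotype. Their direction was therefore largely fixed in advance, and the share over all genes was not taken. The direction turned with limma-voom for Nat2 (-0.065) and C1qb (-0.081), and with replicates 1 and 2 alone for Hba-a2 (0.24), Hba-a1 (0.43), Cd74 (0.27) and Ripk3 (-0.20). Without single libraries the log2 fold change ranged from -1.97 to 0.20 for Acta2, -4.65 to 0.44 for Col1a2, -0.50 to 0.46 for Gad1, -0.24 to 0.38 for Nat2, -0.40 to 0.81 for C1qb, -0.31 to 0.32 for Ripk3, -0.24 to 0.26 for Tnfaip3, -0.85 to 0.51 for Hba-a1 and -1.001 to 0.28 for Hba-a2. Of 33 lists, 21 kept 1 sign of the median in all settings. Counts of list members per setting were added after seeing the data. With only the 6 libraries compared, 299 genes were higher and 340 lower at an unadjusted p under 0.05. At that p, 14 immediate early genes were then lower, against 10 with WT in the fit. Venous genes had 8 lower against 5, glucocorticoid receptor targets 7 against 3, and MHC class I genes 5 against 2, each with 0 higher. The depth of APP/PS1 replicate 1 sets the least sensitive floor, 0.189 CPM.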

Other observations

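Some transcripts were found in every library of 1 genotype and in no library of the other. Of the 23420 genes, 27 (0.115%) had counts in all 3 APP/PS1 libraries and 0 in the compound genotype. For 65 (0.278%) it was the other way round. Besides 2610035D17Rik, 4 genes had 0 counts in all 3 compound libraries and 10 or more counts in each APP/PS1 library: Arc, G630025P09Rik, Krt80 and Wasf1. With 2610035D17Rik they make up 0.0213% of the matrix. Arc, an immediate early gene best known from neurons, was at least 18.52-fold lower in the compound genotype, set at its mean floor of 3 counts per library, against 1.32, 1.58 and 0.497 CPM in APP/PS1 and 0.286 ± 0.313 CPM in WT. Wasf1, a regulator of actin branching, had 0 counts in the compound genotype, against 0.818, 0.932 and 0.656 CPM in APP/PS1 and 0.058 ± 0.0787 CPM in WT. The keratin Krt80 had 0 counts in the compound genotype and averaged 1.26 ± 0.7 CPM in APP/PS1. In WT it had 1.45, 1.71 and 0 CPM, so it was absent from WT replicate 3, whereas 2610035D17Rik was found in all 3 WT libraries.

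The other direction, 10 or more counts in each compound library and 0 counts in all 3 APP/PS1 libraries, held for 6 genes, or 0.0256% of the matrix. These were BC025920, Kif4, Mlc1, Msx3, Sez6l and Slc9a9. Sez6l, a membrane protein related to the seizure protein Sez6, had 1.84, 3.72 and 1.28 CPM in the compound genotype and 0.568 ± 0.575 CPM in WT. Its compound mean was at least 22.46-fold above the mean floor of APP/PS1. The mitotic kinesin Kif4 had 0.224, 3.13 and 0.757 CPM in the compound genotype and 1.57 ± 1.01 CPM in WT. Its compound mean of 1.37 ± 1.54 CPM was at least 13.5-fold above that floor, but compound replicate 2 held most of it. Compound replicate 1, with 11 counts, was near the floor of 0.189 CPM in APP/PS1 replicate 1. Slc9a9, a sodium-proton exchanger of endosomes, had 0.857, 0.388 and 0.757 CPM in the compound genotype and 0.00879 ± 0.0152 CPM in WT. All 11 genes with 10 or more counts in each library of 1 genotype were tested. Of these, 2610035D17Rik was the one past the FDR threshold in the edgeR quasi-likelihood test. These genes were chosen after their values were seen, and the shallower APP/PS1 replicate 1 makes a count of 0 easier to reach there.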
